A study of Mus musculus with 8 samples.

Results

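The genes described here are 10 genes that mark smooth muscle cells and myofibroblasts: *Acta2*, *Actg2*, *Myh11*, *Myl9*, *Tagln*, *Cnn1*, *Des*, *Pdgfra*, *Pdgfrb* and *Postn*. They were taken by name from a table of 55401 genes, and all 10 were found. Total RNA of mouse kidney was sequenced in 8 libraries, 1 per mouse, as paired-end libraries of poly(A) RNA. The rFGF4 group (n = 4, mice 1, 2, 3 and 5) received recombinant FGF4, a shortened and non-mitogenic form of the human growth factor, and the vehicle group (n = 4, mice 2, 3, 4 and 5) received the buffer alone. All 8 mice were male and diabetic. The vehicle samples are labelled as db/db, obese mice that lack a working leptin receptor, here on the C57BLKS/J background. The rFGF4 samples are labelled by their treatment alone, with no genotype, and the series' design text places both groups in db/db mice. The text of the study instead places the sequencing in mice made diabetic with streptozotocin, and the files do not tell these apart. The labels do not name the vehicle, which comes from the study's methods. Treatment was 1 mg/kg of rFGF4 on alternate days for 8 weeks. That regimen is described for both models, and not for the sequenced mice separately. It began at 12 weeks of age in the db/db mice, while the age at its start in the streptozotocin mice is not given the same way throughout the sources. The comparison asks how rFGF4 altered the kidney of diabetic mice. No healthy mice are among these libraries, so the levels of the 10 genes without diabetes were not analysed here.

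Smooth muscle cells of the renal arteries and arterioles contract by sliding filaments of α-actin along smooth muscle myosin. The same actin appears in myofibroblasts, matrix-producing cells that arise in an injured kidney and are the usual hallmark of fibrosis. Pericytes, mesangial cells and resident fibroblasts carry the receptors for platelet-derived growth factor (PDGF), which drive their growth and migration. In RNA of kidney tissue, fewer cells of a type and less RNA per cell cannot be told apart. The study's text calls the sequenced material kidney or renal tissue, and names the renal cortex as the source of RNA for its PCR. Which region was sequenced is not stated there.

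None of the smooth muscle and myofibroblast genes differed between the groups beyond the spread between mice. Of the 10 genes, 8 had at least 0.5 FPKM (fragments per kilobase of transcript, scaled to the fragments mapped in the library) in 4 or more libraries and were tested with limma on log2(FPKM + 1), among 15150 genes in all. At the threshold the study used, which asks for 1.5-fold or more and for p under 0.05 without adjustment, 0 of the 8 were called, where 1.52% of all tested genes were called (1.09% higher and 0.436% lower in rFGF4). In limma 0 of the 8 had an unadjusted p under 0.05, against 4.62% of all genes, and 0 had an adjusted p under 0.05, against 0.0% of all genes. The lowest adjusted p of any gene was 0.918. In 0 of the 8 were the groups without overlap, against 3.33% of all genes. The median log2 fold change of the 8 was -0.24, and that of all tested genes was 0.09. Within this range the genes fell on both sides of 0. The estimates of the myosin, actin and calponin genes lay between -0.62 and -0.48, those of *Tagln* and *Des* lay near 0, and those of both PDGF receptors lay above 0.

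**Figure D1:**
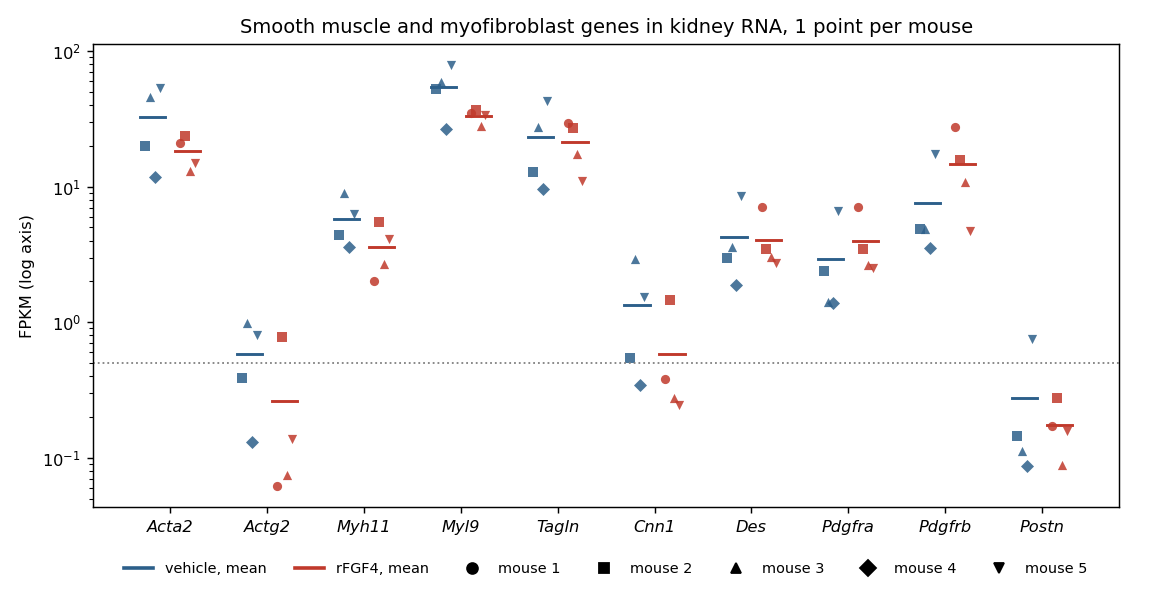
FPKM of the 10 genes in kidney RNA on a log axis, with 1 point per mouse, a horizontal bar for the mean of each group (n = 4) and a dotted line at 0.5 FPKM. The groups overlap in every gene, and vehicle mice 3 and 5 stand at the top of the vehicle group for most of the contractile genes.

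**Figure D2:**
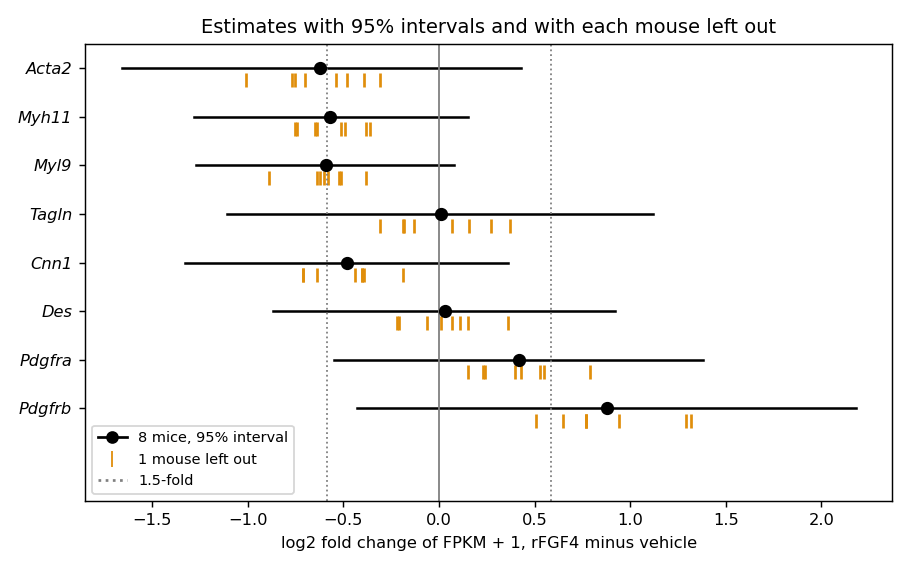
Estimated log2 fold change of FPKM + 1 for the 8 tested genes, rFGF4 minus vehicle, with the 95% interval from limma (black, 8 mice) and the estimate with each mouse left out in turn (orange ticks). All 8 intervals include 0, and those of *Pdgfrb* and *Tagln* are the widest.

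*Acta2* encodes smooth muscle α-actin, the protein most often stained to find myofibroblasts. The gene lies on the minus strand of chr19:34241090-34255590 (GRCm38). Its FPKM was 21.0, 23.7, 13.1 and 15 in rFGF4 mice 1, 2, 3 and 5, and 20.0, 45.5, 11.8 and 53.7 in vehicle mice 2, 3, 4 and 5. Vehicle mice 3 and 5 lay above every rFGF4 mouse and vehicle mouse 4 lay below every one, so the vehicle group enclosed the rFGF4 group. The means were 18.2 ± 4.96 in rFGF4 and 32.8 ± 20.0 in vehicle (SD, n = 4 each). The log2 fold change was -0.62 (SE 0.46, 95% interval -1.66 to 0.43, limma adjusted p = 0.92), and the two-sided exact permutation test, which cannot go below 0.0286 with 4 mice against 4, gave p = 0.343. Actin genes resemble each other closely. Of 2146 stretches of 50 bases in the *Acta2* transcripts, 7 (0.326%) also occurred in another actin, all of them in the cytoplasmic actin *Actg1*, and 0 occurred in *Actg2*.

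*Myl9* encodes the regulatory light chain of smooth muscle myosin, whose phosphorylation triggers contraction, and lies on the plus strand of chr2:156775420-156781658. It had the highest level of the 10 genes. Its FPKM was 34.8, 36.5, 27.9 and 33.8 in the rFGF4 mice and 52.0, 58.9, 26.7 and 78.7 in the vehicle mice, in the same order as above. Vehicle mice 2, 3 and 5 lay above all rFGF4 mice, and vehicle mouse 4 lay below them all. The means were 33.2 ± 3.74 in rFGF4 and 54.1 ± 21.5 in vehicle, with a log2 fold change of -0.59 (SE 0.30, 95% interval -1.27 to 0.08, limma p = 0.0785, adjusted p = 0.918, exact permutation p = 0.143). This was the smallest unadjusted p among the 8 genes. Without vehicle mouse 4, the log2 fold change of *Myl9* was -0.89 (SE 0.18, limma adjusted p = 1.0) and that of *Acta2* was -1.01 (SE 0.36, limma adjusted p = 1.0), and both passed the study's threshold. *Myl9* also passed it after scaling of each library by its median ratio (-0.72, SE 0.27, limma adjusted p = 0.942). Other choices brought both genes closer to 0. Without vehicle mouse 5 the log2 fold change was -0.38 for *Myl9* and -0.31 for *Acta2*, without vehicle mouse 3 it was -0.39 for *Acta2*, and with libraries weighted by their fit to the model it was -0.34 and -0.17.

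*Acta2* and *Myl9* had the most similar pattern over the 8 mice of any pair of the 8 genes, with a root mean square difference of 0.37 SD between their standardised log2 values. The sequences around their start sites are shown for that reason. They come from RefSeq (GRCm38.p6) and run from 250 bases before the start to 50 bases after it, at chr19:34255324-34255623 on the minus strand for *Acta2* and at chr2:156775214-156775513 on the plus strand for *Myl9*. Capitals mark matches on either strand to 4 motifs: the CArG box bound by serum response factor, TATAAA, the MCAT motif CATTCC bound by TEAD factors, and the GC box GGGCGG bound by SP and KLF factors.
Acta2: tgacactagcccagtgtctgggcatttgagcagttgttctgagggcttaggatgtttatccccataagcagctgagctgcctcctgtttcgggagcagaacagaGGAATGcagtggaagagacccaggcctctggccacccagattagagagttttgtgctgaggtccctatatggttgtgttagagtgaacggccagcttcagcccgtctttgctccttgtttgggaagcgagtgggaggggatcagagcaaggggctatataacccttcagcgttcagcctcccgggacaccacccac
Myl9: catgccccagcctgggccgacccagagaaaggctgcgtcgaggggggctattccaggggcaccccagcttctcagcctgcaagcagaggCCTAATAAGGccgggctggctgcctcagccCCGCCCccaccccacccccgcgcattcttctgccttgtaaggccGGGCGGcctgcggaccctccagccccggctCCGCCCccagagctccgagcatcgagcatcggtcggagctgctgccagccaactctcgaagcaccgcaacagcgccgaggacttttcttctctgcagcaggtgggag
The *Acta2* window holds an MCAT motif, written as its reverse complement, whose first base is 146 bases before the start. The *Myl9* window holds a CArG box that begins 161 bases before the start and 3 GC boxes. Of 32851 windows of this length, 1.63% hold a CArG box with only A and T between its outer bases, 13.6% hold TATAAA, 14.7% the MCAT motif and 35.7% the GC box. Windows were found for 6 of the 10 genes, and not for *Actg2*, *Myh11*, *Tagln* and *Pdgfrb*. A CArG box with only A and T between its outer bases occurs in the window of 1 gene, *Myl9*. A CArG box with another base inside it was not counted. Also in the *Acta2* window are ccctatatgg and ccttgtttgg, which each differ from the counted pattern by 1 inner base. A match is a description of the letters.

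*Myh11* encodes the heavy chain of smooth muscle myosin, a marker of mature smooth muscle that myofibroblasts mostly lack (chr16:14194535-14291372). Its FPKM was 2.0, 5.48, 2.71 and 4.11 in the rFGF4 mice and 4.41, 8.91, 3.56 and 6.27 in the vehicle mice. The groups overlapped, with rFGF4 mouse 1 the lowest of all and vehicle mouse 3 the highest. The log2 fold change was -0.57 (SE 0.31, 95% interval -1.28 to 0.15, limma p = 0.105, adjusted p = 0.918, exact permutation p = 0.171). Without rFGF4 mouse 2, it was -0.75 and passed the study's threshold (SE 0.31, limma adjusted p = 0.995). It was -0.36 without vehicle mouse 3, -0.38 without rFGF4 mouse 1 and -0.21 with libraries weighted by their fit.

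*Cnn1* encodes calponin, which binds actin and slows the myosin motor (chr9:22099216-22109630). It reached 0.5 FPKM in 4 libraries, the fewest that admit a gene to the test. Its FPKM was 0.380, 1.45, 0.276 and 0.245 in the rFGF4 mice and 0.541, 2.93, 0.343 and 1.53 in the vehicle mice. rFGF4 mouse 2 stood apart from the other rFGF4 mice and within the range of the vehicle mice. The log2 fold change was -0.48 (SE 0.37, 95% interval -1.33 to 0.36, limma adjusted p = 0.92, exact permutation p = 0.2), and it lay between -0.71 and -0.19 with a mouse left out, nearest to 0 without vehicle mouse 3. With 0.1 added to the FPKM in place of 1, the log2 fold change of *Cnn1* was -0.96 (SE 0.72, limma adjusted p = 0.913). It was -0.08 with libraries weighted by their fit. *Actg2*, the γ-actin of gut and urinary tract muscle (chr6:83512905-83536265), reached 0.5 FPKM in 3 libraries and was not tested. Its FPKM was 0.0619, 0.780, 0.0754 and 0.137 in the rFGF4 mice and 0.386, 0.993, 0.132 and 0.812 in the vehicle mice. The same 3 mice, rFGF4 mouse 2 and vehicle mice 3 and 5, were the highest for *Cnn1* and for *Actg2*. When no filter on low values was used, the log2 fold change of *Actg2* was -0.32 (SE 0.23, limma adjusted p = 0.915).

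*Tagln* encodes transgelin (SM22α), an actin-binding protein of smooth muscle, at chr9:45929619-45936058. Its FPKM was 29.4, 26.9, 17.3 and 11.0 in the rFGF4 mice and 12.8, 27.4, 9.59 and 42.9 in the vehicle mice. The vehicle mice held both the highest and the lowest value, and the means of 21.2 ± 8.53 and 23.2 ± 15.3 were close (log2 fold change 0.01, SE 0.49, 95% interval -1.11 to 1.12, limma adjusted p = 0.999, exact permutation p = 1.0). That interval allows a change of more than 1.5-fold in either direction. *Des* encodes desmin, the intermediate filament of muscle that mesangial cells and injured podocytes also make (chr1:75360329-75368579). Its FPKM was 7.12, 3.44, 3.01 and 2.72 in the rFGF4 mice and 2.97, 3.58, 1.88 and 8.55 in the vehicle mice. One mouse of each group, rFGF4 mouse 1 and vehicle mouse 5, lay far above the rest of its group. The log2 fold change was 0.03 (SE 0.39, 95% interval -0.87 to 0.92, limma adjusted p = 0.995). The signs of both estimates turned with the scaling of the libraries, to -0.12 for *Tagln* and -0.07 for *Des* when each library was scaled to a common median ratio. Exons of *Tagln* overlap *Pcsk7* and an antisense gene on the other strand, those of *Des* overlap an antisense gene, and those of *Pdgfra*, described next and used for ratios, overlap *Gm42802* and *Gm42803* on the other strand and the microRNA gene *Mir7025* on its own. The labels do not state whether strand was kept, so reads of such partners cannot be told apart.

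Both receptors for PDGF had higher means in the rFGF4 mice, within the spread. *Pdgfrb*, the receptor of pericytes, mesangial cells and fibroblasts, lies at chr18:61045150-61085061. Its FPKM was 27.5, 15.8, 10.8 and 4.73 in the rFGF4 mice and 4.83, 4.88, 3.52 and 17.3 in the vehicle mice. Of the rFGF4 mice 3 lay above vehicle mice 2, 3 and 4, while rFGF4 mouse 5 lay among those and vehicle mouse 5 lay among the high rFGF4 mice. The means were 14.7 ± 9.67 in rFGF4 and 7.62 ± 6.46 in vehicle, with a log2 fold change of 0.88 (SE 0.57, 95% interval -0.43 to 2.18, limma p = 0.161, adjusted p = 0.918, exact permutation p = 0.314). It passed the study's threshold without rFGF4 mouse 5 (1.29, SE 0.52, limma adjusted p = 0.527) and without vehicle mouse 5 (1.32, SE 0.49, limma adjusted p = 0.62), and likewise when libraries were weighted by their fit to the model (1.12, SE 0.41, limma adjusted p = 0.391). Without rFGF4 mouse 1, the highest of the 8, it was 0.51 (SE 0.55, limma adjusted p = 1.0).

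*Pdgfra*, the receptor that marks fibroblasts, lies at chr5:75152292-75198215. Its FPKM was 7.09, 3.49, 2.65 and 2.52 in the rFGF4 mice and 2.38, 1.42, 1.38 and 6.58 in the vehicle mice. Every rFGF4 mouse lay above vehicle mice 2, 3 and 4, and vehicle mouse 5 was the second highest of the 8. The log2 fold change was 0.42 (SE 0.42, 95% interval -0.55 to 1.38, limma adjusted p = 0.925, exact permutation p = 0.429). Without vehicle mouse 5 it was 0.79 and passed the study's threshold (SE 0.31, limma adjusted p = 0.62), and without rFGF4 mouse 1 it was 0.15 (SE 0.40, limma adjusted p = 1.0). The sign of the *Pdgfra* estimate turned in other fits. It was -0.03 on the 6 mice whose numbers recur in both groups, and -0.11 with the mitochondrial share of each library as a covariate. *Postn* encodes periostin, a matrix protein secreted by activated fibroblasts and used as a marker of renal fibrosis (chr3:54361109-54391037). It was the lowest of the 10 genes. Its FPKM was 0.173, 0.277, 0.0881 and 0.159 in the rFGF4 mice and 0.144, 0.112, 0.0866 and 0.757 in the vehicle mice, so that only vehicle mouse 5 reached 0.5 FPKM and the gene was not tested.

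By mean level over the 8 mice, in FPKM and so per length, the order was *Myl9*, *Acta2*, *Tagln*, *Pdgfrb*, *Myh11*, *Des*, *Pdgfra*, *Cnn1*, *Actg2* and *Postn*. *Myl9* was above *Acta2*, *Tagln* above *Pdgfrb* and *Cnn1* above *Actg2* in 8 of 8 mice. *Acta2* was above *Tagln*, *Myh11* above *Des* and *Actg2* above *Postn* in 5 of 8 mice, so the order within these pairs was not steady. The order also differed between the groups. *Acta2* was above *Tagln*, and *Actg2* above *Postn*, in 4 of 4 vehicle mice and in 1 of 4 rFGF4 mice, and *Myh11* had a higher mean than *Des* in vehicle (5.79 and 4.24 FPKM) and a lower one in rFGF4 (3.58 and 4.07 FPKM). These differences were noticed in the values and were not tested. The highest mouse exceeded the lowest by 2.95-fold for *Myl9*, the least variable gene, and by 16.1-fold for *Actg2*, the most variable. Vehicle mouse 5 was the highest of the 8 for 5 genes, vehicle mouse 3 for *Actg2*, *Myh11* and *Cnn1*, and rFGF4 mouse 1 for *Pdgfra* and *Pdgfrb*. Vehicle mouse 4 was the lowest for 7 genes. For *Acta2*, *Myl9*, *Tagln*, *Des* and *Postn*, the spread within the vehicle group alone, between its mice 4 and 5, was as wide as that over all 8 mice.

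**Figure D3:**
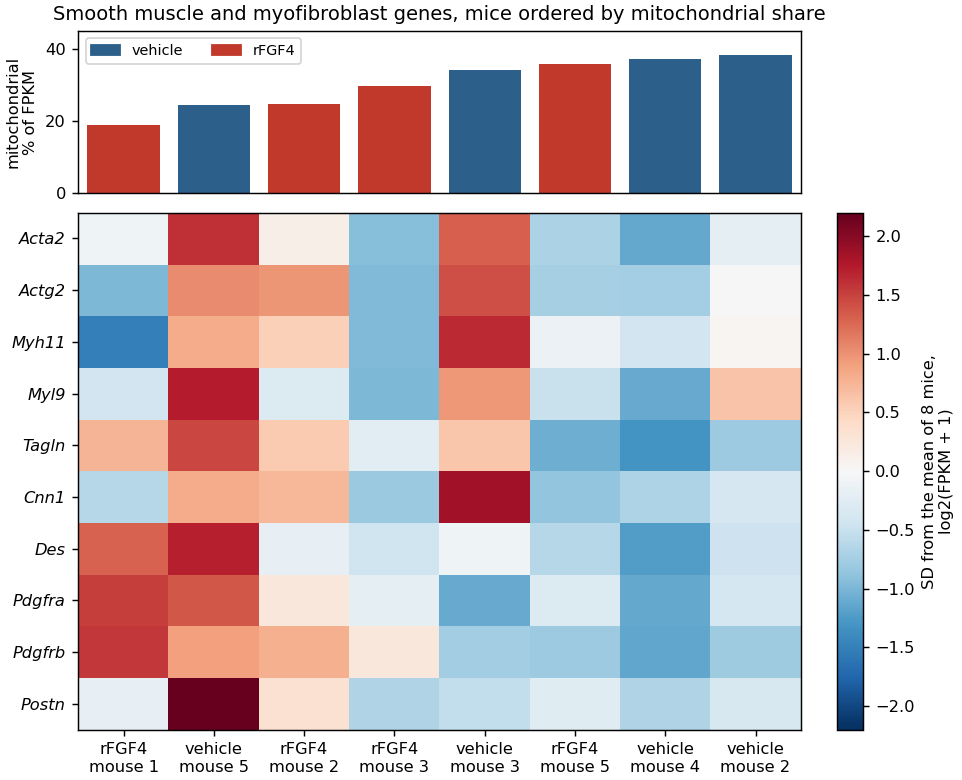
Log2(FPKM + 1) of the 10 genes in each mouse, coloured by the distance in SD from the mean of the gene over the 8 mice, with the mitochondrial share of the summed FPKM (%) as bars above and the mice ordered by it. Vehicle mouse 5 is above the mean for all 10 genes, rFGF4 mouse 1 is high for both receptors and low for *Myh11*, and vehicle mouse 3 is high for the contractile genes and low for *Pdgfra*.

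The libraries also differed in their make-up. The mitochondrial genome supplied 19.0%, 24.7%, 29.8% and 36.0% of the summed FPKM in the rFGF4 mice and 38.4%, 34.2%, 37.2% and 24.4% in the vehicle mice. The 5 mice with the highest *Pdgfrb* were the 5 with the lowest mitochondrial share, in the same order. In a fit with that share as a covariate, added after the values were seen, the log2 fold change of *Pdgfrb* was 0.05 and that of *Pdgfra* was -0.11. In the same fit *Acta2* was -1.07 (SE 0.41, limma adjusted p = 0.59) and *Myl9* -0.82 (SE 0.30, limma adjusted p = 0.59), and both passed the study's threshold. Whether the share is a cause of the receptor values was not tested. Markers of the proximal tubule, the main cell of the kidney cortex, summed to 385 to 1450 FPKM in the rFGF4 mice and 954 to 1570 FPKM in the vehicle mice, lowest in rFGF4 mouse 1. All 8 of these markers were tested, 0 were called, and 7 had estimates below 0 (median log2 fold change -0.17). The transporters *Slc34a1*, *Slc5a12* and *Slc5a2* had log2 fold changes of -0.49, -0.43 and -0.38.

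Other tissues that hold smooth muscle or could be cut along with a kidney were looked for through their markers. The 9 markers of the urothelium, which lines the renal pelvis over a muscle coat, summed to 153, 79.5, 8.88 and 20.6 FPKM in the rFGF4 mice and 34.8, 33.7, 8.29 and 92.7 FPKM in the vehicle mice, with the sum highest in rFGF4 mouse 1 and vehicle mouse 5. Keratins carried those sums, *Krt20* with 97.9 FPKM in rFGF4 mouse 1 and *Krt5* with 44.8 FPKM in vehicle mouse 5. The uroplakins, plaque proteins of the urothelial surface, had their highest values elsewhere, 4 of 5 in vehicle mouse 2 (*Upk1a* at 12.9 FPKM) and *Upk3a* in vehicle mouse 3 (5.8 FPKM). Of the 9 markers, 7 were tested and 0 were called, with log2 fold changes of 1.83 for *Krt20*, -0.90 for *Upk1a* and -0.82 for *Upk3a*. The 10 markers of B cells and lymphoid tissue summed to 23000 FPKM in vehicle mouse 5 and to between 27.4 and 2730 FPKM in the others, and 0 of the 8 tested were called. The antibody light chain gene *Igkc* supplied 22300 FPKM of the sum in vehicle mouse 5. Of the 8, 2 had estimates above 0 (*Igkc* at 0.20 and *Jchain* at 0.11) and 6 below 0, among them -1.01 for *Ccl19*, -0.64 for *Cd79b* and -0.76 for *Cd79a*. The 11 markers of skeletal and heart muscle summed to between 0.529 and 3.11 FPKM in every mouse, with *Myh4*, a myosin of fast skeletal fibres, listed at the floor of the table in all 8, and the 1 marker tested, *Mylpf*, was not called (log2 fold change 0.18). The 7 markers of fat summed to between 1.35 and 4.8 FPKM, with *Retn* listed at the floor in all 8, and the 1 marker tested, *Plin4*, was not called (log2 fold change 0.35). The 5 red blood cell genes summed to 120 to 2660 FPKM in rFGF4 and 1140 to 4330 FPKM in vehicle, with 5 of 5 estimates below 0 and 0 called. The log2 fold change was -1.97 for *Hba-a1* and *Hba-a2*, near-identical copies between which reads may be split, and -1.98 for *Hbb-bt*. The part of these tissues in the values of the smooth muscle genes was not tested.

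The genes can also be read against each other within a mouse, which removes any factor common to the library. The ratio of *Acta2* to *Pdgfra* was 2.96, 6.80, 4.95 and 5.96 in the rFGF4 mice and 8.41, 32.1, 8.58 and 8.15 in the vehicle mice. Every rFGF4 mouse lay below every vehicle mouse. The ratio of *Des* to *Pdgfra* was 1.0, 0.986, 1.14 and 1.08 in the rFGF4 mice and 1.25, 2.52, 1.36 and 1.3 in the vehicle mice, and the ratio of *Tagln* to *Pdgfrb* was 1.07, 1.70, 1.61 and 2.33 against 2.65, 5.62, 2.73 and 2.49. These also did not overlap. Of the 6 tested contractile and filament genes, 2 had a lower ratio to *Pdgfra* in rFGF4 without overlap, where 0.546% of 14822 tested genes above the floor in all 8 libraries did, and 1 of 6 had a lower ratio to *Pdgfrb*, where 0.729% did. *Actg2*, which was not tested, overlapped in both ratios. The ratio of *Acta2* to *Pdgfrb* overlapped, at 0.763, 1.5, 1.22 and 3.18 against 4.14, 9.33, 3.37 and 3.11. The ratios were chosen after the values of the genes were seen and are given without a test. A ratio shows that its genes differed unequally between mice, not which of them differed.

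**Figure D4:**
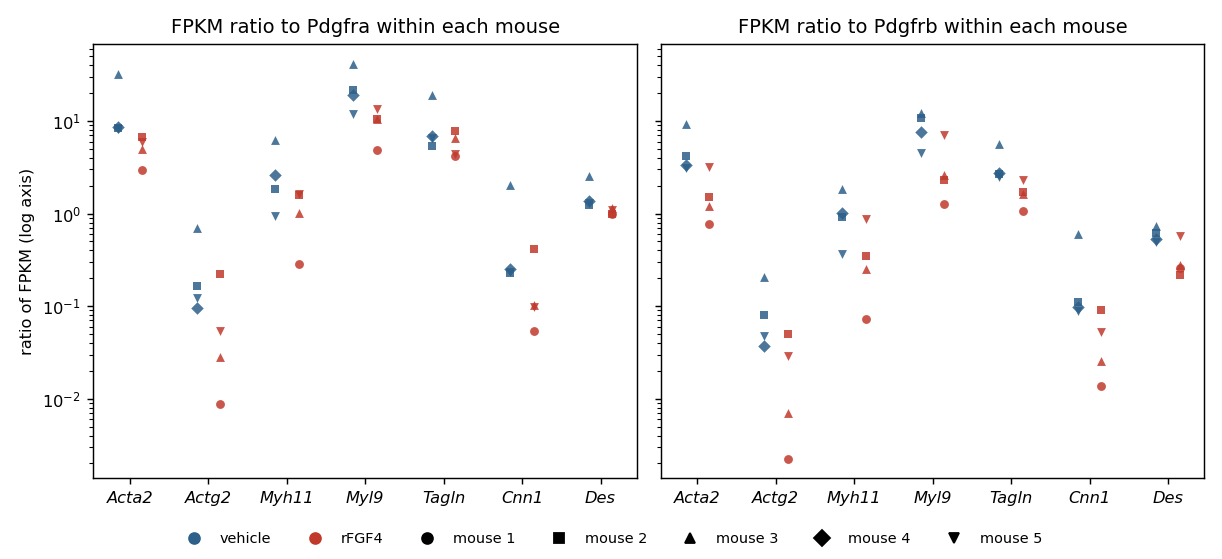
Ratio of the FPKM of 7 contractile and filament genes to that of *Pdgfra* (left) and *Pdgfrb* (right) within each mouse, on a log axis, with 1 point per mouse. The groups are apart for *Acta2* and *Des* over *Pdgfra* and for *Tagln* over *Pdgfrb*, and overlap for the others.

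Most other genes of the contractile apparatus and its anchorage had estimates above 0, as did 67.1% of all tested genes. These signs moved with the scaling, since 47.6% of all tested genes had estimates above 0 once each library was divided by its median ratio. Of 20 tested, 17 were above 0 (median log2 fold change 0.19) and 13 after that scaling (median 0.08), and 1 was called lower, *Ppp1r14a*. This gene encodes CPI-17, an inhibitor of the myosin phosphatase that keeps smooth muscle contracted. Its FPKM was 1.04, 0.599, 0.768 and 1.69 in the rFGF4 mice and 1.68, 2.03, 1.24 and 3.79 in the vehicle mice, with a log2 fold change of -0.62 (SE 0.26, limma p = 0.0423, adjusted p = 0.918, exact permutation p = 0.0857). The groups overlapped, and the call remained in 2 of 8 fits that left a mouse out. *Tagln2*, a relative of *Tagln* found in many cell types, had 128 ± 45.8 FPKM in rFGF4 and 76.1 ± 28.0 FPKM in vehicle (log2 fold change 0.73, SE 0.33, limma adjusted p = 0.918), and *Vcl*, the focal adhesion protein vinculin, had a log2 fold change of 0.67 (SE 0.36, limma adjusted p = 0.918). The cytoplasmic actins *Actg1* and *Actb* had log2 fold changes of 0.26 and 0.11, and 0 of the 2 tested actins outside the smooth muscle genes were called.

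Of 10 tested factors that switch smooth muscle genes on or off, 0 were called and 6 had estimates above 0 (median log2 fold change 0.05), or 4 after scaling. *Klf4*, which represses smooth muscle genes, had a log2 fold change of 0.58 (SE 0.50, limma adjusted p = 0.92), *Mrtfa*, an actin-sensing partner of serum response factor, 0.30 (SE 0.28, limma adjusted p = 0.921), and *Foxo4* 0.19 (SE 0.13, limma adjusted p = 0.918). Of the 4 PDGF ligands, 0 were called and 4 had estimates above 0, or 2 after scaling. *Pdgfb*, the ligand that recruits pericytes, was 19.0, 6.87, 3.81 and 3.99 FPKM in the rFGF4 mice and 3.11, 4.55, 2.82 and 11.6 FPKM in the vehicle mice. Like *Pdgfrb*, it was highest in rFGF4 mouse 1 and vehicle mouse 5. *Pdgfa* and *Pdgfc* had log2 fold changes of 0.24 and 0.07.

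Of 13 tested pericyte and mesangial genes 0 were called, with 6 estimates above 0 and 7 below 0 (median log2 fold change -0.02). *Rgs5*, a pericyte marker, had 14.6 ± 3.0 FPKM in rFGF4 and 21.1 ± 9.63 FPKM in vehicle (log2 fold change -0.44, SE 0.28, limma adjusted p = 0.918). *Abcc9*, a potassium channel subunit of pericytes, had a log2 fold change of -0.39, and *Itga8*, an integrin of mesangial cells, one of 0.37. Of 27 tested fibroblast and matrix genes 0 were called, while 23 had estimates above 0 (median log2 fold change 0.46), or 22 after scaling (median 0.36). *Ccn2*, a matrix-associated growth factor, had 65.6 ± 32.8 FPKM in rFGF4 and 28.7 ± 16.9 FPKM in vehicle (log2 fold change 1.10, SE 0.56, limma adjusted p = 0.918, exact permutation p = 0.143). *Thbs1* and *Loxl2*, which encode a matrix glycoprotein and a collagen cross-linking enzyme, had log2 fold changes of 0.61 and 0.65. The 29 listed fibroblast and matrix genes summed to 681, 353, 219 and 118 FPKM in the rFGF4 mice and 110, 187, 89.3 and 575 FPKM in the vehicle mice, again highest in rFGF4 mouse 1 and vehicle mouse 5. Among the neighbouring cell types, 0 of 8 endothelial markers were called and 7 had estimates below 0. *Tek*, an angiopoietin receptor, had an unadjusted p under 0.05 at less than 1.5-fold (log2 fold change -0.38, SE 0.16, limma adjusted p = 0.918, exact permutation p = 0.0857), beside -0.36 for *Tie1* and -0.26 for *Cdh5*. Of 6 podocyte markers 1 was called higher, *Synpo*, an actin-binding protein of the foot processes (log2 fold change 0.87, SE 0.30, limma adjusted p = 0.918, exact permutation p = 0.0571). Its groups overlapped, and the call was lost without rFGF4 mouse 2, rFGF4 mouse 5 or vehicle mouse 3, so that it remained in 5 of 8 fits that left a mouse out. *Podxl* and *Nphs1*, proteins of the podocyte surface and slit diaphragm, had log2 fold changes of 0.30 and 0.26.

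**Figure D5:**
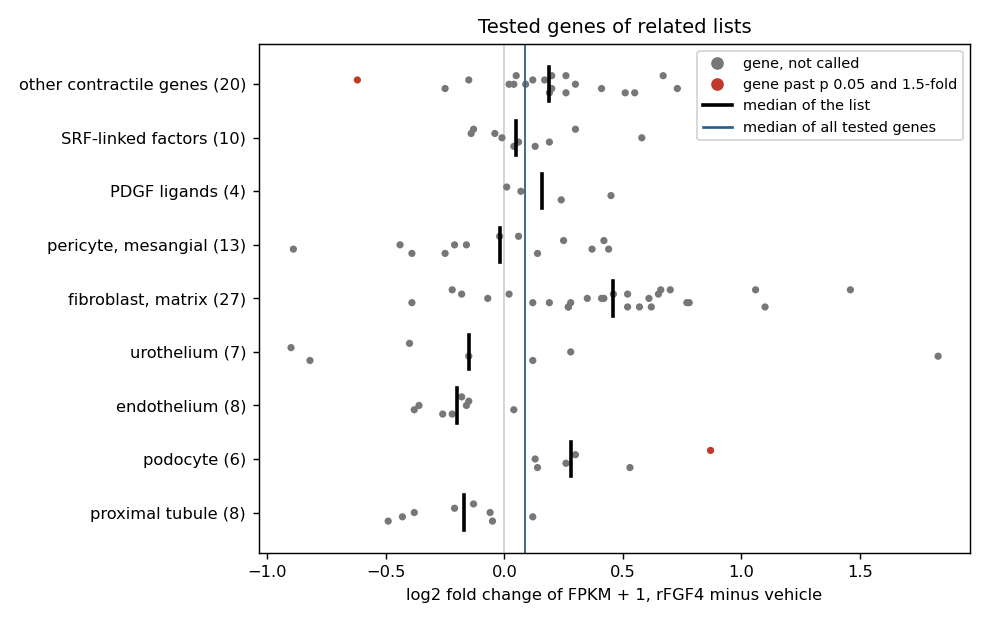
Log2 fold change of FPKM + 1, rFGF4 minus vehicle, of each tested gene in 9 lists related to smooth muscle or to other kidney cells (number of genes in brackets), with 1 point per gene, a black bar at the median of each list and a blue line at the median of all tested genes. The medians lie at 0.19 for other contractile genes and 0.46 for fibroblast and matrix genes, beside 0.09 for all tested genes, and the red points are *Ppp1r14a* and *Synpo*, the genes past the study's threshold.

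Across all other tested genes with a mean of at least 1 FPKM, 13192 in number, the pattern most like that of *Acta2* over the 8 mice belonged to *Rnasek* (0.20 SD), *Tmem250-ps* (0.30 SD), *Spef1*, *Gm36738* and *Hp* (0.32 SD each), by root mean square difference of standardised log2 values. The differences between mice were small in *Rnasek*, which ranged from 16.1 to 25 FPKM, and larger in *Hp*, the plasma protein haptoglobin, which ranged from 3.62 to 21.3 FPKM. *Pdgfrb* had closer neighbours. They were *Nid1*, the basement membrane protein nidogen (0.08 SD), *Jak1*, a cytokine receptor kinase (0.09 SD), *Cdca4* (0.12 SD), *Tgfbr2*, a receptor for TGF-β (0.13 SD), and *Xiap*, an inhibitor of caspases (0.13 SD). *Nid1* was 15.3, 9.80, 7.32 and 3.90 FPKM in the rFGF4 mice and 4.24, 3.62, 3.33 and 10.7 FPKM in the vehicle mice, and so followed the order of the rFGF4 mice and of vehicle mouse 5 seen in *Pdgfrb*. Among the smooth muscle and myofibroblast genes themselves, *Pdgfra* and *Pdgfrb* differed by 0.40 SD and *Des* and *Pdgfra* by 0.43 SD, whereas *Myh11* differed from each of the receptors by 1.51 SD. These are descriptions over 8 libraries.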

How the data were processed

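The deposited table gives FPKM per gene for 8 kidney libraries, which the authors calculated with StringTie. The submitters' processing notes name HISAT2 2.0, StringTie 1.3.0 and Bowtie 0.12.2 and the build mm8, with no role given. The authors also deposited an edgeR comparison with a fold change (a ratio), its log2, a p-value and a q-value per gene, which were not used. The table holds no counts, so depth and counting error are unknown. The relative depth read from low values was 0.906 to 1.12 of vehicle mouse 2. A value of 0.0001 stands in place of 0.

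The genes and lists were chosen with earlier results of these data known. Genes with at least 0.5 FPKM in 4 libraries were compared as log2(FPKM + 1) with limma 3.58.1 in R 4.3.3 (trended variance, no block or covariate, Benjamini-Hochberg adjustment), which was tested on simulated data. The pseudocount shrinks the fold changes of low genes. Two-sided exact permutation tests were run gene by gene. The study's edgeR was not used because it needs counts. No source says whether the mice shared litters or days, so p-values measure the spread between these samples. All 10 genes are named, with 3 genes of smallest p per list at a mean of at least 1 FPKM, any called, and the 5 nearest in pattern to *Acta2* and *Pdgfrb*. Lists cover contractile genes, their regulators, PDGF ligands, actins, pericytes, fibroblasts and 8 other cell types or tissues. Positions came from GENCODE M21 (99.5% of identifiers found) and promoters from RefSeq. Alternatives were another pseudocount, no filter, another scaling, array weights, a replicate block, and leaving out each mouse. The same 6 libraries without the block and the mitochondrial covariate were added after the data were seen.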

Additional observations from a re-analysis of the deposited data

Results flagged for a closer look

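Within groups of 4 mice, 3 values stood apart from the other mice of their group beyond the critical value (95%) of Dixon's ratio of the gap to the range. They were *Actg2* in rFGF4 mouse 2 (0.780 FPKM, ratio 0.867), *Cnn1* in rFGF4 mouse 2 (1.45 FPKM, ratio 0.848) and *Postn* in vehicle mouse 5 (0.757 FPKM, ratio 0.893). The ratio was computed on log2(FPKM + 1) for 20 groups (10 genes in 2 groups of mice), and chance gives about 1 in 20. All 3 genes have means of about 1 FPKM or less.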

How the results depend on the processing

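Of 120 recomputed estimates of the 8 tested genes, 89 kept their direction and side of the study's threshold, 13 moved past it and 18 changed sign. *Acta2*, *Myh11*, *Myl9* and *Cnn1* stayed below 0 and *Pdgfrb* above 0 under all 15 alternatives, and no adjusted p of the 8 genes fell below 0.391. The genes called numbered 1 after scaling to a common median ratio (*Myl9* -0.72), 1 with array weights (*Pdgfrb* 1.12), 2 with the mitochondrial covariate and 0 to 2 with a mouse left out. Signs changed for *Tagln* (-0.12 scaled, -0.64 with the covariate, -0.31 to 0.37 with a mouse left out), *Des* (-0.07, -0.48, -0.22 to 0.36) and *Pdgfra* (-0.11 with the covariate). The causes were not tested.

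Between mice that share a number, the deviations from the group means had r = -0.23, -0.16 and -0.39. With 3 such pairs, this cannot show whether the mice of a pair shared a litter or a day. With the replicate block on the 6 mice whose numbers recur, 1 of the 8 genes was called (*Myl9* -0.92), where 263 of 15150 tested genes were (182 higher, 81 lower). In that fit *Acta2* was at -1.08, *Pdgfrb* at 0.28, *Tagln* at -0.50, *Des* at -0.46 and *Pdgfra* at -0.03. The same 6 libraries without the block gave 2 of the 8 (*Acta2* -1.08 and *Myl9* -0.92), where 255 of 15150 tested genes were called (182 higher, 73 lower). The values for *Tagln* (-0.50), *Des* (-0.46) and *Pdgfra* (-0.03) were the same as with the block.

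Over all genes, 231 were called (165 higher, 66 lower), 0 at an adjusted p under 0.05 in limma, where 700 had an unadjusted p under 0.05. The count was 348 with a pseudocount of 0.1, 490 with array weights and 501 with the covariate (128 higher, 373 lower), and 187 to 575 with a mouse left out (575 without rFGF4 mouse 5, 432 without vehicle mouse 5). Scaling gave 174 (93 higher, 81 lower). Of 120 genes in the other lists, 2 were called (1 higher, 1 lower), 0 at an adjusted p under 0.05, 3 after scaling, 3 with the replicate block, 12 with array weights (8 higher, 4 lower), 13 with the covariate (0 higher, 13 lower) and 0 to 14 with a mouse left out (14 without vehicle mouse 5, 12 without rFGF4 mouse 5, 0 without vehicle mouse 3). With no filter 147 genes of these lists were tested and 1 was called.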
